A study of Mus musculus with 8 samples.

Results

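A set of 8 genes known from autonomic neurons, Vip, Phox2a, Ret, Gfra2, Nrtn, Nos1, Chrna3 and Chrnb4, was followed in the tongue bud, the embryonic tissue that becomes the tongue. They were taken as all probe sets (groups of short array probes) whose platform annotation named exactly 1 gene, with that gene among the 8. This gave 19 probe sets for 8 genes, of 34945 probe sets for 18193 genes in all. The genes were proposed with the mutant against control differences of these arrays in view, in which Vip had already stood out, so their own group differences are given as a description and not as a test. Mutant embryos had the genotype Wnt1-Cre; Alk5 fl/fl and control embryos Alk5 fl/fl, both on the C57BL/6J strain, at embryonic day 13.5, with sex not determined. Both groups thus carried the floxed Alk5 alleles, and the mutants alone carried Cre recombinase under the Wnt1 promoter, which is active in the neural crest. Neither group carried Cre without the floxed alleles, so an effect of the transgene itself cannot be told apart from that of receptor loss. Alk5, gene symbol Tgfbr1, is the type I receptor for TGF-beta. Each group had 4 arrays of whole tongue bud RNA, and the study asked how loss of TGF-beta signalling in cranial neural crest cells affects their interaction with muscle precursors.

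Parasympathetic neurons of the head come from the neural crest, reach their targets along nerves as Schwann cell precursors, and gather in small ganglia, some of them inside the tongue. The homeodomain protein Phox2a takes part in directing the autonomic neuron fate. Ret is a receptor tyrosine kinase that is activated by ligands of the GDNF family, each bound to its own co-receptor: neurturin, encoded by Nrtn, is made by target tissues and binds the co-receptor encoded by Gfra2. Mature parasympathetic neurons of the head signal with acetylcholine, and many also release vasoactive intestinal peptide, encoded by Vip, and nitric oxide made by the neuronal synthase encoded by Nos1, both of which relax blood vessels. Chrna3 and Chrnb4 encode the alpha and beta subunits of the nicotinic receptor through which preganglionic fibres excite them. Because Wnt1-Cre acts in the whole neural crest, peripheral neurons and glia derived from it can lose the receptor just as the tongue mesenchyme can.

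Of the 8 genes, 6 had a promoter window in the RefSeq table (GRCm38.p6), here the 250 bases before the start of the gene. The windows of Vip and Phox2a are shown because these were the members with a window that were clearly lower in mutants. Capitals mark TGACG, the core of a cAMP response element, TATAAA, the TATA box, and GGGCGG, the GC box, each searched on both strands. The full element TGACGTCA, which contains TGACG, was searched as well.
Vip, GRCm38.p6 chr10:5638968-5639217, plus strand: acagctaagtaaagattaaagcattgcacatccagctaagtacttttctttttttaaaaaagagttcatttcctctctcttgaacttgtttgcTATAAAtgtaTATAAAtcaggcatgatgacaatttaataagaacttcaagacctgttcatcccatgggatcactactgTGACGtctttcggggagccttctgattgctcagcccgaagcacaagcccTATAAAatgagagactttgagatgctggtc
Phox2a, GRCm38.p6 chr7:101818063-101818312, plus strand: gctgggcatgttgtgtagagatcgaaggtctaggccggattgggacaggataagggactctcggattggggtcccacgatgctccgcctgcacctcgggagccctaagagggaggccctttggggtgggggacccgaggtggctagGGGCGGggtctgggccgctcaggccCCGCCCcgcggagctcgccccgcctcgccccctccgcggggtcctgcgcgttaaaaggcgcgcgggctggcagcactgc
The Vip window held TGACG at -79 to -75 and TATAAA at -157 to -152, -147 to -142 and -30 to -25, counted so that -1 is the last base before the start, and it held no GGGCGG. The Phox2a window held GGGCGG at -104 to -99 and at -79 to -74, with neither TGACG nor TATAAA. Vip was thus AT-rich, with a GC content of 38.4%, and Phox2a GC-rich, with 70.4%. Of all 32851 promoter windows of this length, 17.8% held TGACG, 12.4% TATAAA, 32.7% GGGCGG and 1.55% the full TGACGTCA, which none of the 6 member windows held. TGACG also occurred in the window of Nos1, at -130 to -126, a gene whose brightest probe set differed little between the groups. Chrna3 and Chrnb4 neighbour each other on chromosome 9, with Chrna5 on the other side of Chrna3.

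Arrays and labels were checked first. Array medians of the log2 values lay between 5.96 and 6.01, and no array gave detection calls. The brightest Tgfbr1 probe set read 12.42, 12.42, 12.37 and 12.36 in mutants 1 to 4, against 12.03, 12.12, 11.97 and 11.89 in controls 1 to 4. The other 2 Tgfbr1 sets were also higher in mutants, by 0.82 and 0.52, and all 3 passed in limma over all probe sets. Every set of the targeted gene was thus higher, not lower, in the arrays labelled mutant. Since the sources used here do not place the probes relative to the deleted part, these values are no test of the deletion, and each direction given here rests on the labels alone. Muscle, epithelial and mesenchymal markers of the tongue were bright: the list means per array were 10.60 to 10.99 in mutants and 11.11 to 11.39 in controls for muscle. They were 9.93 to 10.50 in mutants and 10.28 to 10.52 in controls for epithelium, and 8.22 to 8.54 in mutants and 8.17 to 8.45 in controls for neural crest mesenchyme. Averaged over 3 Y-linked genes, the log2 value was 8.70 to 8.73 in mutants, against 3.09 in control 3 and 8.44 to 8.72 in controls 1, 2 and 4. By these genes control 3 read as female and the other arrays as male, although sex was not determined otherwise. Litters are not given in the labels, so the spread within a group may be smaller than that between litters.

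Vip, encoding the vasodilator peptide, was low on every mutant array. Its only probe set, 1428664_at, read 4.28, 4.37, 4.54 and 4.15 in mutants 1 to 4, against 6.60, 6.82, 5.49 and 6.57 in controls 1 to 4. The groups did not overlap, and the controls were spread more widely because control 3 lay more than a log2 unit under the other controls. The means were 4.33 ± 0.17 in mutants and 6.37 ± 0.60 in controls (SD, n = 4 each), a log2 difference of -2.04 (SE 0.26), or 4.11-fold lower in mutants. Without control 3 the log2 difference was -2.33. The mutant mean lay below the array medians, where array signal falls less than RNA does. For comparison, 39 olfactory receptor genes, not expected in tongue, had means between 3.46 (5th percentile) and 5.59 (95th percentile), although probes differ in how brightly they bind and this range is no detection limit.

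Ret, the receptor kinase shared by all ligands of the GDNF family, gave different answers on its 2 probe sets. Probe set 1436359_at read 4.79, 4.83, 5.13 and 4.56 in mutants 1 to 4, against 7.58, 7.50, 6.76 and 7.34 in controls 1 to 4. No mutant value came within a log2 unit of any control value, and control 3 was again the lowest control. The means were 4.83 ± 0.23 in mutants and 7.29 ± 0.37 in controls (SD, n = 4 each), a log2 difference of -2.47 (SE 0.18), or 5.54-fold lower in mutants, with the mutant mean again below the array medians and, like that of Vip, within the range of the olfactory receptor genes. The sizes of these 2 falls are therefore not ranked against each other. Probe set 1421359_at read 6.06, 6.17, 5.70 and 6.07 in mutants 1 to 4, against 6.37, 6.19, 6.10 and 6.37 in controls 1 to 4. Here the groups overlapped, and the log2 difference was -0.26 (95% interval -0.50 to -0.01). Averaged over all 8 arrays 1421359_at was slightly the brighter set, so it stood for Ret wherever a gene was represented by its brightest probe set, and Ret did not pass in that fit. With the probe set chosen by the higher of its group means instead, a choice made after the values were seen, 1436359_at stood for Ret at -2.47. The mean of both sets gave -1.36. Where the probes of each set lie on the Ret transcripts was not analysed here.

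Phox2a, the homeodomain factor of autonomic and some cranial motor neurons, differed less but in the same direction. Its probe set 1418620_at read 5.21, 5.03, 5.01 and 5.33 in mutants 1 to 4, against 6.18, 6.09, 5.80 and 5.66 in controls 1 to 4. The groups did not overlap, and came closest between mutant 4 and control 4. The means were 5.15 ± 0.16 in mutants and 5.93 ± 0.24 in controls (SD, n = 4 each), a log2 difference of -0.79 (SE 0.12), or 1.72-fold lower in mutants. Both means lay below the array medians, where folds are compressed, and the mutant mean was within the range of the olfactory receptor genes.

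**Figure D1:**
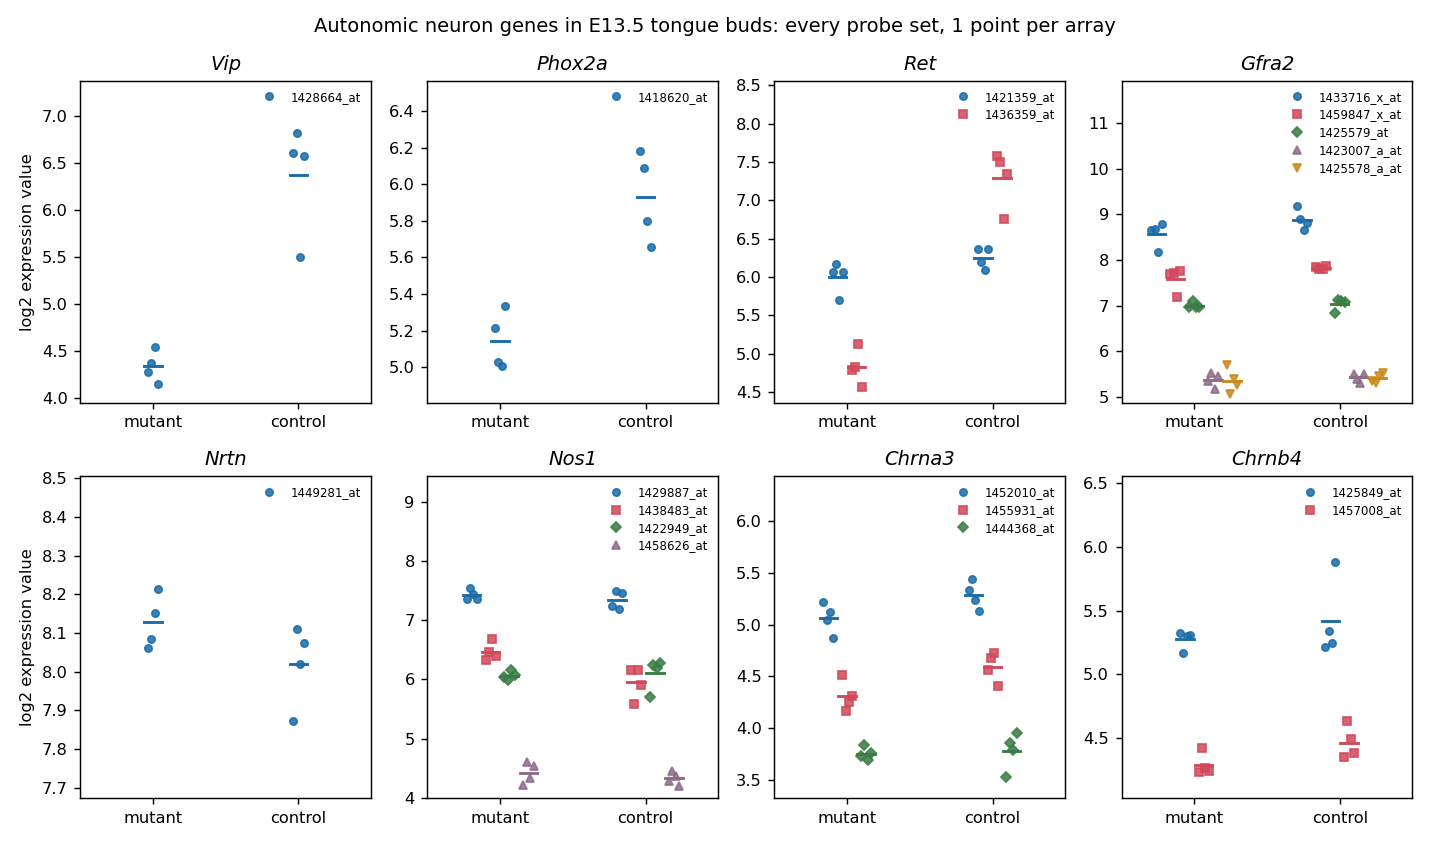
Log2 expression values of the 8 autonomic neuron genes, with mutants left and controls right in each panel. Each point is 1 array (n = 4 per group), each colour and marker a probe set and each bar the mean of a group. Vip, Phox2a and the Ret set 1436359_at show mutants apart from controls, while most sets of the other genes overlap, and vertical scales differ between panels.

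The neurturin arm upstream of Ret showed smaller differences. Nrtn, the ligand, read 8.06, 8.08, 8.15 and 8.21 in mutants 1 to 4, against 7.87, 8.11, 8.02 and 8.07 in controls 1 to 4 on 1449281_at. The groups overlapped, and the log2 difference of 0.11 had a 95% interval of -0.04 to 0.26, which leaves out a loss of the size seen for Vip. Gfra2, the neurturin co-receptor, had 5 probe sets, all with small negative differences, from -0.31 to -0.04. Its brightest set, 1433716_x_at, read 8.66, 8.69, 8.18 and 8.80 in mutants, against 9.19, 8.89, 8.65 and 8.82 in controls. These values overlapped, with mutant 3 lowest of all (log2 difference -0.31, 95% interval -0.65 to 0.03). On 1459847_x_at all mutants lay below all controls, at 7.69, 7.71, 7.19 and 7.75 in mutants against 7.85, 7.81, 7.81 and 7.87 in controls. Sets whose identifiers end in _x_at can hold probes that match other transcripts. The other 3 Gfra2 sets, at -0.05, -0.05 and -0.04, overlapped between groups.

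Nos1, the neuronal nitric oxide synthase, was not lower in mutants on its brightest set. That set, 1429887_at, read 7.37, 7.54, 7.45 and 7.36 in mutants 1 to 4, against 7.24, 7.50, 7.19 and 7.46 in controls 1 to 4, a log2 difference of 0.08 (95% interval -0.11 to 0.27). These values overlapped. A dimmer set, 1438483_at, went the other way from Vip, with 6.33, 6.47, 6.68 and 6.40 in mutants against 6.16, 5.59, 6.16 and 5.91 in controls. All mutants lay above all controls there, and the log2 difference of 0.52 did not pass the threshold over all probe sets. The remaining 2 Nos1 sets differed by -0.04 and 0.09 and overlapped. Nos1 is also a gene of skeletal muscle, where its product is held at the membrane, so its signal in a whole bud need not come from neurons.

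The ganglionic nicotinic receptor genes were dim in both groups. Chrna3 read 5.22, 5.04, 5.12 and 4.87 in mutants 1 to 4, against 5.33, 5.44, 5.23 and 5.13 in controls 1 to 4 on its brightest set 1452010_at. The values overlapped only through mutant 1, which lay above control 4, and the log2 difference was -0.22 (95% interval -0.42 to -0.01). Its second set, 1455931_at, differed by -0.29 (95% interval -0.50 to -0.08) with mutants at 4.51, 4.17, 4.25 and 4.31 against controls at 4.57, 4.68, 4.73 and 4.41. The third differed by -0.03. Chrnb4 read 5.33, 5.17, 5.30 and 5.31 in mutants 1 to 4, against 5.22, 5.34, 5.25 and 5.88 in controls 1 to 4 on 1425849_at. Only control 4 stood clearly above the mutants, and without it the log2 difference of -0.15 became 0.01. Its other set, 1457008_at, differed by -0.18 and overlapped. All 5 sets had both group means below the array medians, where folds are compressed.

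**Figure D2:**
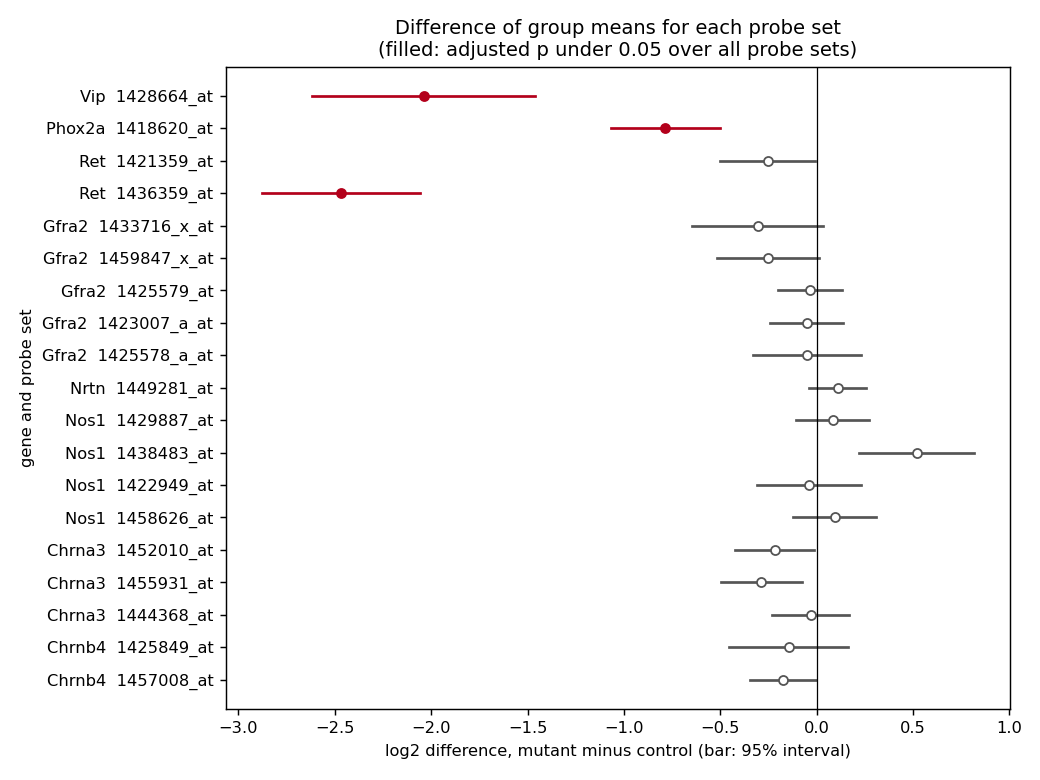
Log2 difference of the group means, mutant minus control, for each of the 19 probe sets (n = 4 arrays per group), with bars for the 95% interval. Filled red points are the 3 sets past an adjusted p of 0.05 over 34945 probe sets, Vip, Phox2a and Ret 1436359_at. The 2 Ret sets have intervals that do not meet, and the other 16 sets lie between -0.31 and 0.52.

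Counted together, 3 of the 19 probe sets passed an adjusted p of 0.05 in limma as lower in mutants and 0 as higher, where 3.25% of all probe sets passed as lower and 2.69% as higher. No overlap between groups was seen in 4 sets with mutants lower and 1 with mutants higher, against 6.89% and 7.82% of all probe sets. With each gene represented by its brightest probe set, 2 of the 8 genes (Vip and Phox2a) passed as lower and 0 as higher, where 5.52% and 4.20% of all genes did. The median log2 difference of the 8 genes was -0.24, beside -0.01 over all genes. Since the genes were chosen with this contrast in view, nothing is read from these counts.

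The spread among embryos of the same genotype does not use the group difference. Within groups Vip and Ret 1436359_at moved together: both were lowest in control 3 among controls, by -0.88 and -0.53 from the group mean, and both were highest in mutant 3, by 0.21 and 0.30, and lowest in mutant 4, by -0.19 and -0.26. Over the deviations of all 8 arrays Pearson's r was 0.92 and Spearman's rho 0.90. Without controls 2 and 3, the arrays farthest from the median of Vip, r was 0.91, with deviations still taken from means that included them. With the group means taken anew without control 3 alone, r was 0.82. The pair ranked 2 of 171 pairs of member probe sets, whose r ran from -0.90 to 0.97 with a median of -0.03. A likeness of this size was not particular to the pair. Among all genes, some that did not pass between the groups came closer to Vip by deviations, such as Magee1 (r = 0.97) and AY702102 (r = 0.95). The highest pair was Ret 1421359_at with Gfra2 1423007_a_at, while Vip with Ret 1421359_at gave r = 0.19. These values are descriptions of 8 arrays that share their normalization, without a test. On every mutant array Vip and Ret 1436359_at lay within the range of the olfactory receptor genes. Vip and Ret 1436359_at ran in the same direction within the mutants and within the controls. Other pairs ran in opposite directions in the 2 groups, and whether this was more than scatter among 4 arrays was not tested. The 2 Ret sets (r = 0.00, rho -0.07 over 8 arrays), Phox2a with Vip (r = 0.22) and Phox2a with Ret 1436359_at (r = 0.18) each ran against each other in mutants and together in controls. With 4 arrays per group no coefficient is given within a group. Control 3, the array without Y-linked signal, thus had the lowest Vip and Ret 1436359_at among controls, and without it the log2 difference of Ret 1436359_at was -2.65 and that of Phox2a -0.83.

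**Figure D3:**
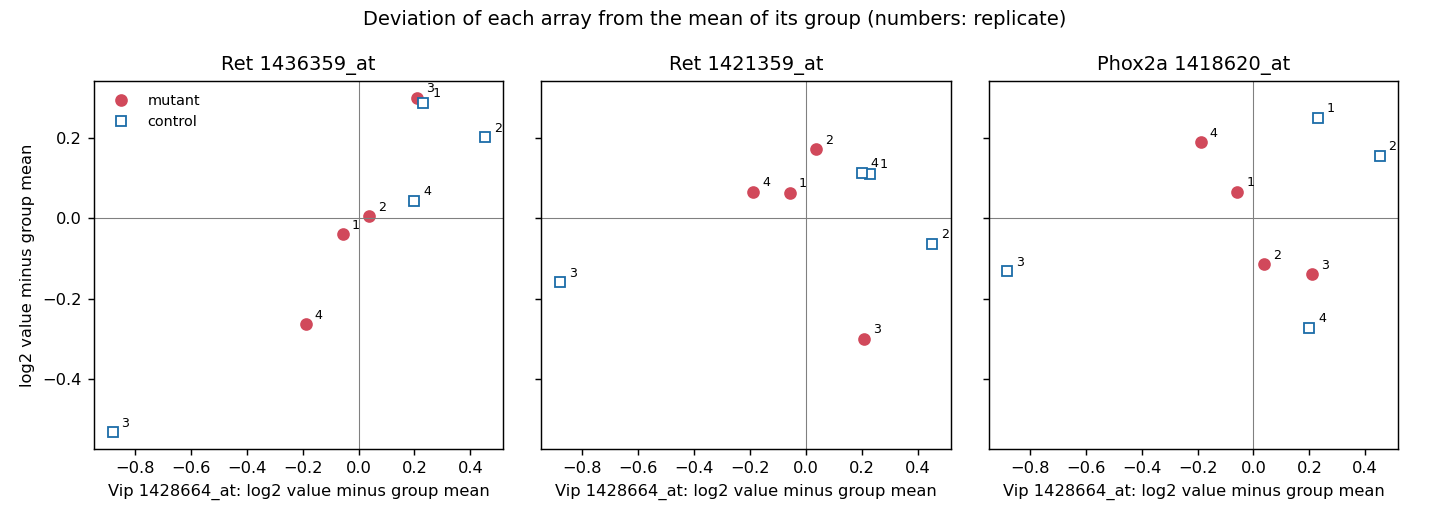
Deviation of each array from the mean of its own group, in log2 units, for Ret 1436359_at, Ret 1421359_at and Phox2a (vertical axes) against Vip (horizontal axis). Filled circles are mutants and open squares controls, numbered by replicate (n = 4 per group). In the left panel the points rise together with r = 0.92, with control 3 lowest on both axes, and in the other panels the mutants run downward and the controls loosely upward.

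Over all 8 arrays, where the group difference dominates, the genes with a pattern most like that of Vip were Frrs1l (r = 0.99), Csf2rb2 (0.99), Nfia (0.99), Rtn1 (0.98) and Kitl (0.98) among 18192 genes. The 99th percentile of r was 0.92, so these 5 stand in a long upper tail and share the arrays and the lower mutant level with many genes. By deviations within groups the nearest were Magee1 (r = 0.97), Gm20324, Capns2, Slc26a1 and AY702102, none of which passed between the groups.

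Other genes of the autonomic lineage were compared in 5 lists, each gene by its brightest probe set. These lists too were chosen with earlier results of these data known, so nothing is read from their counts. Of 52 measured genes 10 fell and 2 rose in mutants at an adjusted p of 0.05 in limma, beside 5.52% and 4.20% of all genes, with a median log2 difference of -0.08. The 10 that fell were Scg5, Chgb, Scg3, Scg2, Npy, Ache, Adcyap1r1, Insm1, Ncam1 and Gucy1b1, and the 2 that rose were Adcyap1 and Gata2.

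Of the 17 measured genes of cholinergic and peptide transmission, 7 fell and 1 rose, with a median of -0.14. Scg5, a chaperone of the prohormone convertase that matures peptides, read 4.81, 4.50, 4.35 and 4.59 in mutants 1 to 4, against 7.15, 7.03, 5.87 and 5.81 in controls 1 to 4. The groups did not overlap, although controls 3 and 4 lay more than a log2 unit below controls 1 and 2 (log2 difference -1.91, SE 0.30, adjusted p = 0.00445 in limma). Chgb, the granule protein chromogranin B, averaged 5.18 ± 0.21 in mutants and 6.34 ± 0.16 in controls (SD, n = 4 each). It fell without overlap (log2 difference -1.17, SE 0.11). The mutant means of Scg5, Chgb and Scg2 lay below the array medians and within the range of the olfactory receptor genes, so no fold is given for them. The secretogranin genes Scg3 and Scg2 fell by 0.79 and 0.66 on the log2 scale. Chga, chromogranin A, differed by -0.38, Pcsk1, a prohormone convertase, by 0.07, and the peptide genes Gal and Sst by -0.06 and -0.02, and these 4 did not pass. Ache, the enzyme that splits acetylcholine and which muscle also makes, fell by 0.60 (SE 0.06), and Adcyap1r1, the receptor of the VIP-related peptide PACAP, by 0.32. Npy, a peptide of sympathetic neurons, fell by 0.50, but when single arrays were left out it passed without control 1 only (-0.62 to -0.39 over these 8 fits). Adcyap1, encoding PACAP itself, rose by 0.67 but lost its call without mutant 1, 2 or 3 and without control 1, 2 or 3 (0.51 to 0.79 over all 8 fits).

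The genes that define the cholinergic phenotype did not pass and were dim in both groups. Chat, which makes acetylcholine, read 4.77, 4.68, 4.73 and 4.74 in mutants, against 4.66, 4.85, 4.63 and 5.16 in controls. Slc18a3, the vesicular transporter, differed by -0.08 and Slc5a7, the choline transporter, by -0.14. Of the noradrenergic markers, Th, the first enzyme of catecholamine synthesis, differed by -0.07 and Dbh, which makes noradrenaline, by -0.21. Neither passed, and of the 8 in that list only Ddc did, an enzyme also found outside neurons, which fell by 0.59 (adjusted p = 0.00943 in limma). Cartpt differed by 0.41 and did not pass. The receptors for VIP, Vipr1 and Vipr2, differed by -0.03 and 0.00. The values therefore do not place Vip, Ret and Phox2a in a cholinergic or a noradrenergic cell, and the genes are described by name and not as a cell type.

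Among 10 measured transcription factors of the autonomic lineage, 1 fell and 1 rose. Insm1, a zinc-finger factor of developing neuroendocrine and sympathetic cells, read 5.01, 4.99, 5.26 and 4.91 in mutants, against 6.20, 5.84, 5.60 and 5.95 in controls. The groups did not overlap, and the log2 difference of -0.86 (SE 0.12) passed (adjusted p = 0.00299 in limma). The mutant mean of 5.04 lay within the range of the olfactory receptor genes. Both Insm1 means were below the array medians, so Insm1 left the fit with the filter on dim probe sets. It was not called without mutant 1 (-0.95) or mutant 3 (-1.03), where another Insm1 probe set was the brightest, nor with the probe set chosen by its highest group mean (-1.05, adjusted p = 0.0534 in limma). Without control 4, where another Insm1 probe set was again the brightest, it was called at -1.30. Gata2, a factor of sympathetic neurons and blood and endothelial cells, rose by 0.52, but when single arrays were left out it passed without mutant 3 or control 4 only (0.44 to 0.63 over these 8 fits). Gata3 differed by 0.58, Isl1 by -0.33 and Hand2 by 0.03, and these 3 did not pass.

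Among the other genes of the GDNF family system 1 passed. Of 9 measured genes only Ncam1, a neural cell adhesion molecule that also serves as a receptor for GDNF and is abundant in muscle, fell, by 0.47 (SE 0.07). Gdnf differed by -0.04, Artn by 0.01 and Pspn by -0.03, and the co-receptor genes Gfra1, Gfra3 and Gfra4 by 0.60, -0.04 and -0.09. Gfra1 had a wide spread, at 9.59 ± 0.43 in mutants and 8.99 ± 0.54 in controls (SD, n = 4 each), and did not pass, nor did Dok4, an adaptor of Ret (-0.17). Of 8 other neuronal nicotinic subunits 0 passed in limma, with Chrna4 at -0.27 and Chrnb3 at -0.13. Chrna5, the neighbour of Chrna3, differed by 0.18 and Chrna7 by -0.21. In the nitric oxide pathway Gucy1b1, a subunit of the guanylate cyclase that senses nitric oxide, fell by 0.55 (SE 0.08), alone among 8 measured genes, and its partner Gucy1a1 differed by -0.08, Prkg1 by -0.31 and Nos2 by -0.11.

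**Figure D4:**
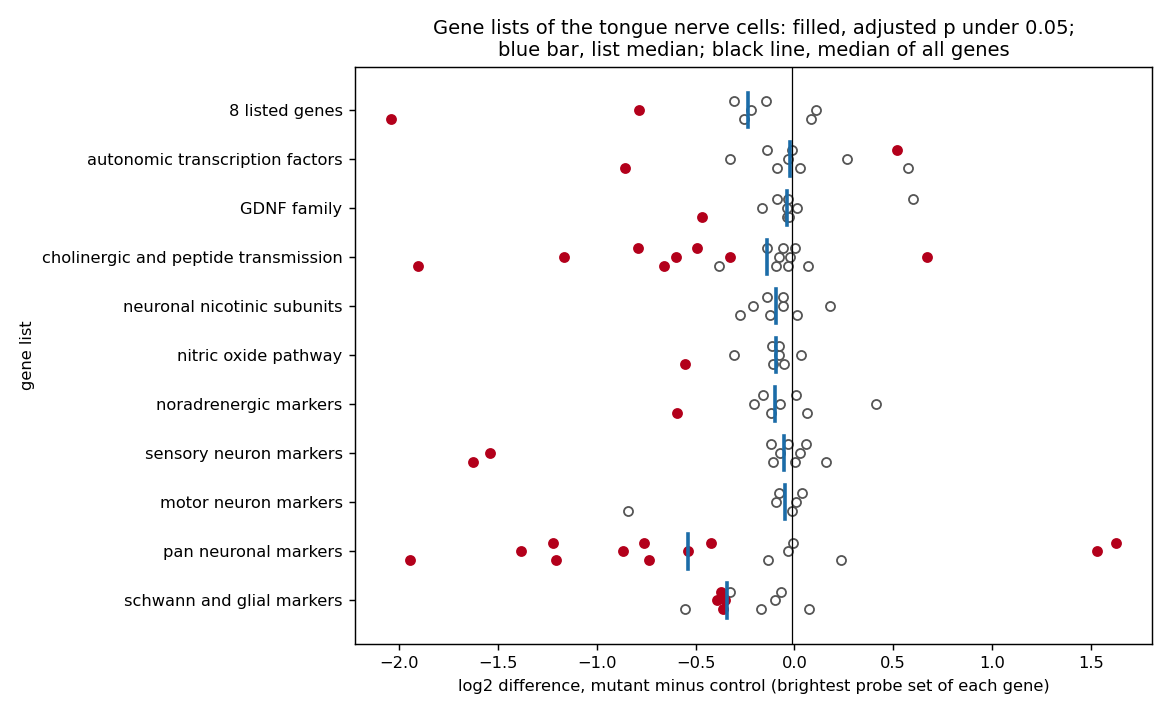
Log2 difference, mutant minus control, of each measured gene in 11 lists, by the brightest probe set of each gene (n = 4 arrays per group). Filled red points passed an adjusted p of 0.05 over all genes, blue bars are list medians and the black line is the median of all genes. Vip, Scg5, Stmn2, Ntrk3 and Tac1 lie farthest left, and the neurofilament genes Nefl and Nefm lie at the far right.

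Markers of other nerve cells moved on the same arrays. The lists in this paragraph were also chosen with earlier results of these data known, so nothing is read from their counts. Of all genes, 5.52% passed as lower and 4.20% as higher. Of 15 pan-neuronal markers 9 fell and 2 rose, and the mean of the list per array was 7.31 to 7.45 in mutants, against 7.70 to 7.86 in controls. No marker can read 0 on this scale, and 1 of the 15, Snap25, had both group means below the array medians. Stmn2, a microtubule regulator of growing axons, fell by 1.95 and the neuronal tubulin gene Tubb3 by 1.38. Stmn3 fell by 1.21, Elavl4 by 1.22, Uchl1 by 0.87, Dcx by 0.74 and Ina by 0.54, while the neurofilament genes Nefl and Nefm rose by 1.63 and 1.53. Syt1, also among the 9, fell by 0.42. When single arrays were left out it passed without mutant 2 or control 3 only (-0.51 to -0.36). Over the 18 alternatives described at the end, which include averaging the probe sets of a gene, Syt1 ran from -0.51 to -0.14. It lost its call in 8 of them. Of 10 Schwann cell and glial markers 4 fell, with list means of 7.80 to 8.01 in mutants, against 8.12 to 8.30 in controls. They were Sox10 (-0.35), Foxd3 (-0.37), S100b (-0.39) and Pmp22 (-0.36). Sox10 lost its call without mutant 2, 3 or 4, Foxd3 without mutant 4, control 2 or control 4, and Pmp22 without mutant 1, mutant 2, mutant 4 or control 4. Over all 8 such fits Sox10 ran from -0.39 to -0.28, Foxd3 from -0.43 to -0.30 and Pmp22 from -0.41 to -0.29. Over the 18 alternatives Sox10 ran from -0.43 to -0.13 and lost its call in 6. Of 10 sensory neuron markers Ntrk3, the receptor for neurotrophin 3, fell by 1.63 and Tac1, which encodes substance P, by 1.54. Their size depended on the setting: over the same 18 alternatives Ntrk3 ran from -1.83 to -0.37 and Tac1 from -1.75 to -0.76. Both stayed called in each. Avil differed by -0.11 without passing, and the list means were 6.06 to 6.37 in mutants against 6.33 to 6.68 in controls. Of 6 motor neuron markers 0 passed in limma, and Mnx1 differed by -0.84 with overlapping groups. Of 6 tongue muscle markers 4 fell: Acta1 by 1.03, Myh3 by 0.68, Myog by 0.38 and Myod1 by 0.31. Of these, Myod1 lost its call without mutant 1, 2 or 3 and without control 1, 2 or 4 (-0.36 to -0.26 over all 8 fits). The means of the pan-neuronal, Schwann and tongue muscle lists were lower on every mutant array than on any control array, as were Vip, Ret 1436359_at and Phox2a. The same held for the lists of cholinergic and peptide transmission and of the nitric oxide pathway. Apart from the list of the members, the remaining lists had means that overlapped between groups. The part of these lists in the differences of the members was not tested. In whole buds fewer cells of a type and less RNA per cell cannot be told apart.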

How the data were processed

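Log2 expression values per probe set were deposited by the authors for 8 one-colour Affymetrix arrays. They were made with RMA, per the submitters' processing notes, and for its version and settings the sources used here give nothing. RMA subtracts background, aligns the arrays and summarises probes on the log2 scale, which can remove shifts common to many genes and compresses folds of dim genes. Total RNA was extracted with a column kit, per the labels' protocols. Of 45101 probe sets, 34945 named 1 gene in the platform annotation, 932 several and 9160 none, and 64 were controls. All 8 member genes matched a RefSeq identifier (GRCm38.p6). No build is named for the array values.

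Mutant minus control differences were fitted in R 4.3.3 using lmFit and eBayes of limma 3.58.1, two-sided with Benjamini-Hochberg adjustment, over 18193 genes by the probe set of highest mean and over all 34945 probe sets. No filter on dim sets was applied. SE is the moderated standard error and intervals are 95%. The fit was tested on simulated data. The members and lists were chosen with earlier results of these data known. Named were all members, list genes that passed, the 3 of smallest p in each list, some list genes of known role that did not pass, chosen after their values were seen, and the 5 genes most like Vip by each measure of likeness. Of the lists not detailed in the text, tongue epithelium had 0 of 7 genes called, with Krt8 (-0.31), Cdh1 (-0.29) and Epcam (-0.21) of smallest p. Neural crest mesenchyme had 0 of 7 lower and 1 higher, Prrx1 (0.76), with Twist1 (0.34) and Dlx5 (-0.41) next. Same-numbered mutant and control arrays did not deviate together (r = -0.40, 0.02, -0.18 and -0.16), so the numbers were not taken to pair samples.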

Additional observations from a re-analysis of the deposited data

Results flagged for a closer look

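In groups of 4 arrays, a value was singled out where its gap to the nearest other array took up more of the group's range than Dixon's critical value for 4 values allows, which chance gives in about 1 of 20 groups. This was so in 11 of 148 groups examined. Among the members, Gfra2 1459847_x_at was low in mutant 3 at 7.19 (other mutants 7.69 to 7.75), and Gfra2 1425579_at was high in mutant 2 at 7.10 (6.96 to 6.97) and low in control 1 at 6.84 (7.09 to 7.12). Nos1 1422949_at was low in control 1 at 5.71 (6.19 to 6.27), and Chrnb4 1425849_at low in mutant 2 at 5.17 (5.30 to 5.33). Among the list genes, Ntrk3 was high in control 2 at 7.95 (7.20 to 7.29), Nefl high in control 2 at 8.91 (8.47 to 8.51), Syt1 low in control 3 at 6.52 (6.83 to 6.89) and Myog low in mutant 3 at 12.22 (12.38 to 12.40). Dlx5 was high in mutant 1 at 6.87 (5.69 to 5.83) and in control 2 at 7.07 (6.23 to 6.32). The low Vip of control 3 did not reach this limit.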

How the results depend on the processing

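Over 18 alternatives, of which the choice of probe set by its highest group mean was added after seeing the data, Vip was called lower in each, with log2 differences of -2.36 to -1.89. Phox2a left the fit with the filter on dim probe sets, where 1 of the 5 members still tested was called. Otherwise 2 to 3 of the 8 genes were called lower (2 to 3 with 1 array left out) and 0 higher. The third was Ret, where 1436359_at stood for it or both sets were averaged. Among all genes tested, 636 to 1153 were called lower and 329 to 1042 higher over the 18 alternatives, so nothing is read from the member counts. By probe set 3 of the 19 were called lower in each fit with 1 array left out and 0 higher. Nos1 1438483_at was called higher, 1 set, without controls 1 and 3 together (0.72), with the filter on dim sets and with eBayes trend and robust options. With the replicate number as a block, a pairing the data do not bear out, Phox2a 1418620_at missed the threshold over all probe sets (adjusted p = 0.0508 in limma), 0 other autonomic genes rose, Adcyap1r1 did not pass and all genes gave 637 lower and 329 higher calls against 1004 and 764. The 10 other autonomic genes called lower were 8 to 10 with 1 array left out. The 2 called higher were 0 to 2 with 1 array left out and 0 without controls 1 and 3 and without variance moderation. The r of Vip with Ret 1436359_at ran from 0.82 (without control 3) to 0.95. Small differences changed sign in some fits with 1 array left out, where Gfra2 1425578_a_at ran from -0.17 to 0.044, Gfra2 1423007_a_at from -0.098 to 0.014, Nos1 1422949_at from -0.17 to 0.016, Chrna3 1444368_at from -0.12 to 0.025, Chrnb4 1425849_at from -0.21 to 0.0082 and Chat from -0.16 to 0.020. Nos1 1429887_at changed sign without controls 1 and 3 together (-0.049). The cause was not tested. Dim signal and 4 arrays per group limit what could be detected for Chrna3, Chrnb4 and the cholinergic genes.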
